A study of Homo sapiens with 83 samples.

Results

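The mitochondrial genome of human cells carries its own short set of genes, and the transcripts of these genes were followed in SHEP and SKNAS neuroblastoma cells with N-MYC inactive or active. Members were all genes whose symbol begins with MT- in the deposited expression table. There were 37 of them among 60237 genes, namely 13 mRNAs, 2 rRNAs and 22 tRNAs, and 15 of the 37 (all mRNAs and rRNAs) had any value above 0. RNA was measured by sequencing of polyadenylated RNA in 83 libraries.

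Both lines are human neuroblastoma cell lines that express N-MYC-ER in every group, that is, N-MYC joined to the ligand-binding part of the estrogen receptor. The fusion protein is made all the time and becomes active when 4-hydroxytamoxifen (4OHT) is added. MYC-ON cells received 4OHT and MYC-OFF cells the ethanol vehicle for 24 h, and every group then received dexamethasone, a glucocorticoid that sets the cells' circadian clocks to a common phase. Collection began 24 h later and went on every 4 h, and each circadian time (CT) is given in hours since dexamethasone. SHEP had 2 series per condition from CT24 to CT76, which gave 28 MYC-OFF and 28 MYC-ON libraries. SKNAS had 1 series per condition, with 14 MYC-OFF libraries and 13 MYC-ON libraries, the latter ending at CT72. All cells grew in high-glucose medium with serum. All time points in a series belong to a single experiment. The experiment was done 2 times in SHEP and 1 time in SKNAS, and p-values measure the spread among these libraries.

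Values are TPM, a length-adjusted abundance unit. They are divided by gene length and scaled to a total of 1000000 in each library. Levels of different genes can therefore be set side by side, but less securely for short overlapping genes, as ratios given below show. The read depth of a library is unknown and single values carry no counting error. Libraries of SKNAS differed from one another far more than those of SHEP. The median over tested nuclear genes of log2(TPM + 1) lay between 3.929 and 4.166 in all SHEP libraries, between 2.966 and 4.383 in the MYC-OFF group of SKNAS and between 2.755 and 4.255 in its MYC-ON group. It was under 3.8 in 4 of 14 SKNAS MYC-OFF libraries, at CT52, CT56, CT64 and CT72, and in 10 of 13 SKNAS MYC-ON libraries. SKNAS MYC-OFF at CT56 stood farthest apart, with 16241 genes above 0. The level of MYCN mRNA, which includes the fusion transcript, was 406.4 to 688.4 TPM without 4OHT and 255.1 to 514.8 TPM with it in SHEP. In SKNAS it ranged from 29.13 to 987.4 TPM without and from 13.07 to 1046 TPM with 4OHT. Because 4OHT acts on the protein, this level checks no label. Of 12 genes fixed as marks of the adrenergic neuroblastoma state, 4 had a mean of at least 1 TPM in SHEP MYC-OFF and 8 in SKNAS MYC-OFF, and DBH and TH were under 1 TPM in all groups. Of 12 mesenchymal genes, 9 and 10 were at or above 1 TPM.

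As background, the mitochondrial DNA is a small circle that is copied into long RNAs from both strands by the nuclear-encoded polymerase POLRMT with the factors TFAM and TFB2M. The tRNAs sit between most of the other genes, and their excision releases the mRNAs and rRNAs, many of which then receive a short poly(A) tail. Each of the 13 mRNAs encodes a core subunit of oxidative phosphorylation, the process that uses electron flow through complexes I, III and IV to drive ATP synthesis by complex V. MT-ND1 to MT-ND6 and MT-ND4L belong to complex I, MT-CYB to complex III, MT-CO1 to MT-CO3 to complex IV, and MT-ATP6 and MT-ATP8 to complex V. MT-RNR1 and MT-RNR2 are the rRNAs of the small and the large subunit of the mitochondrial ribosome.

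On the 16569 bases of the GRCh38 mitochondrial sequence the rRNA genes came first, MT-RNR1 at chrM:648-1601 and MT-RNR2 at chrM:1671-3229. They were followed on the plus strand by MT-ND1 (chrM:3307-4262), MT-ND2 (chrM:4470-5511), MT-CO1 (chrM:5904-7445), MT-CO2 (chrM:7586-8269), MT-ATP8 (chrM:8366-8572), MT-ATP6 (chrM:8527-9207) and MT-CO3 (chrM:9207-9990). The remaining plus-strand mRNA genes were MT-ND3 (chrM:10059-10404), MT-ND4L (chrM:10470-10766), MT-ND4 (chrM:10760-12137), MT-ND5 (chrM:12337-14148) and MT-CYB (chrM:14747-15887). MT-ND6 (chrM:14149-14673) was the 1 mRNA gene on the minus strand. Each gene was a single exon in the annotation. Whether the libraries kept strand was not given in the sources used here, and without strand the reads of MT-ND6 and of RNA made from the opposite strand at that place cannot be told apart.

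Adjacent genes overlap at 2 places where 1 RNA carries a pair of reading frames, and there the shared bases can be assigned to either gene. The first is shown because MT-ATP8 was the mRNA with the widest spread, and the second because MT-ND4L and MT-ND4 are compared as a ratio. Both are plus-strand reference sequence of GRCh38, written 5′ to 3′, with the 46 and 7 shared bases in capitals.
MT-ATP8 and MT-ATP6, chrM:8507-8592: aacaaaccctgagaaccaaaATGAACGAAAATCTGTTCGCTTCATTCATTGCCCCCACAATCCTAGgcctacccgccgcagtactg
MT-ND4L and MT-ND4, chrM:10740-10786: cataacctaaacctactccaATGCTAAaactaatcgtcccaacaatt

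Of the 13 mRNA genes, 6 end in an incomplete stop codon in the DNA. It is known that the poly(A) tail supplies the missing bases, and the last 30 bases of these 6 genes are shown for that reason, because all libraries were selected by poly(A). Capitals mark the incomplete stop codon, and all 6 lie on the plus strand of GRCh38.
MT-ND1, chrM:4233-4262: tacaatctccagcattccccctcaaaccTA
MT-ND2, chrM:5482-5511: ctatctccccttttatactaataatcttaT
MT-CO3, chrM:9961-9990: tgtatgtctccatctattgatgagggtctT
MT-ND3, chrM:10375-10404: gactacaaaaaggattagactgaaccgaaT
MT-ND4, chrM:12108-12137: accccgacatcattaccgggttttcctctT
MT-CYB, chrM:15858-15887: taattgaaaacaaaatactcaaatgggccT

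All 22 tRNAs were listed at exactly 0 in all 83 libraries and entered no test. Their genes span 59 to 75 bases, shorter than any mRNA gene of the set (207 to 1812 bases), and 8 of them lie on the minus strand. A value listed at 0 in a file without counts does not show that the tRNA was absent. The shortest, MT-TS2, a serine tRNA, is shown as an example of the length involved.
MT-TS2, chrM:12207-12265: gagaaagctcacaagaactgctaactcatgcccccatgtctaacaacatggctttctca

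Copies of mitochondrial DNA are also found in the nuclear genome, and reads can be shared between such a copy and its parent. The pseudogene MTATP6P1 (chr1:633696-634376) differed from MT-ATP6 at 10 of 681 aligned bases, an identity of 98.53%, and MTND2P28 (chr1:629640-630683) from MT-ND2 at 17 of 1042, an identity of 98.37%. The stretch below shows how few bases set MTATP6P1 apart, with the 4 differing bases in capitals (GRCh38, plus strands).
MT-ATP6, chrM:8639-8718: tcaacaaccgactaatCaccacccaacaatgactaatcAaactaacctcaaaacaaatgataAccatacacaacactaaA
MTATP6P1, chr1:633808-633887: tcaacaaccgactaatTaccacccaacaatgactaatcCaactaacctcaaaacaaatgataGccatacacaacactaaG

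MTATP6P1 was listed at 457 to 1252 TPM in the MYC-OFF and at 477.6 to 2821 TPM in the MYC-ON libraries of SHEP. The corresponding SKNAS ranges were 94.64 to 1083 and 56.79 to 949.8 TPM. MTND2P28 stayed between 0.4642 and 58.91 TPM, and MTRNR2L12, a nuclear gene similar to MT-RNR2, between 0 and 0.3315 TPM. The level of MT-ATP6 is therefore uncertain by the amount assigned to its copy, and adding pseudogene TPM to the parents moved the mean share of all mRNAs in SHEP MYC-OFF from 8.08% to 8.16%.

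The 13 mRNAs took up a large and variable share of the RNA measured. In SHEP MYC-OFF their share of library TPM was 8.08% ± 1.86 (SD, n = 28), with a lowest value of 5.73%, a median of 7.82% and a highest of 12.98%. With MYC-ON the share was 8.50% ± 2.86 (SD, n = 28), from 5.87% over a median of 6.98% to 15.9%. The groups overlapped over most of their range, and the mRNA share was higher in MYC-ON in 16 of 28 pairs of libraries matched for series and CT.

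The SHEP series differed from each other by more than the conditions did. In series 1 the share was 6.70% ± 0.64 (SD, n = 14) in MYC-OFF and 6.67% ± 0.422 in MYC-ON, and it was higher in MYC-ON in 6 of 14 pairs. In series 2 it was 9.47% ± 1.62 in MYC-OFF and 10.3% ± 3.09 in MYC-ON, higher in MYC-ON in 10 of 14 pairs. The highest MYC-ON shares of series 2 came at CT36 (14.9%), CT48 (14.8%) and CT72 (15.9%). The MYC-OFF libraries of series 2 at the same CTs were at 12.98% (CT36), 11.34% (CT48) and 8.97% (CT72). The high MYC-ON values at CT36 and CT48 thus fell where MYC-OFF was high as well, and the one at CT72 did not.

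**Figure D1:**
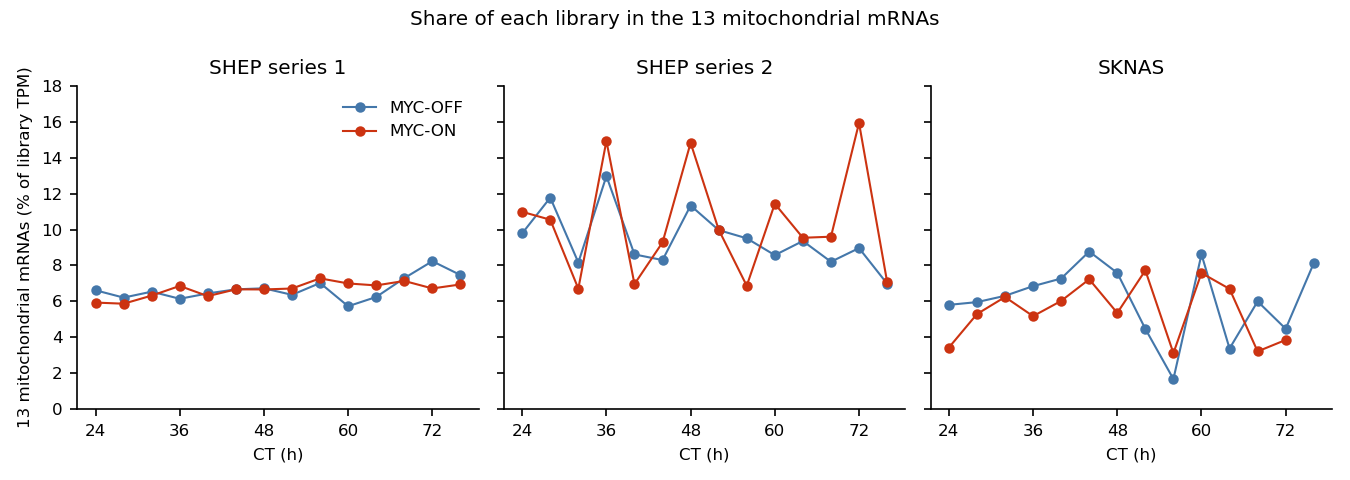
Share of library TPM in the 13 mitochondrial mRNAs (percent) against CT (hours) for each SHEP series and for SKNAS, 1 point per library, MYC-OFF and MYC-ON in different colours. SHEP series 1 stays between 5.73% and 8.24%, SHEP series 2 reaches 15.9%, and SKNAS MYC-OFF falls as low as 1.67%.

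In SKNAS MYC-OFF the mRNA share was 6.09% ± 2.04 (SD, n = 14), and the library at CT56 gave the lowest value of all, 1.67%. With MYC-ON the share was 5.46% ± 1.65 (SD, n = 13), lower than MYC-OFF in 10 of 13 pairs. The log2 ratio of the mean shares was -0.16, and taken relative to the median nuclear gene it turned to 0.30. The libraries with a median under 3.8 had lower shares, 3.50% ± 1.32 (SD, n = 4) in MYC-OFF and 4.97% ± 1.54 (SD, n = 10) in MYC-ON. Among the others the share was 7.131% ± 1.121 (SD, n = 10) in MYC-OFF and 7.07% ± 0.756 (SD, n = 3) in MYC-ON, a difference smaller than the spread of either group. The rRNAs took 0.469% ± 0.111 of library TPM in the MYC-OFF and 0.457% ± 0.205 in the MYC-ON group of SHEP. In SKNAS their share was 0.282% ± 0.0529 with MYC-OFF and 0.339% ± 0.0943 with MYC-ON, where it was higher in 10 of 13 pairs. rRNA has no long poly(A) tail, so in these libraries its level is that of the part retained by the selection.

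Although the mRNAs derive from shared long RNAs, their levels per length spanned a wide range. In SHEP MYC-OFF the order of mean TPM began with MT-ND3 at 16615, which was above the next mRNA, MT-ATP6 at 9530, in 28 of 28 libraries. MT-ATP6, MT-CO2 at 9296 and MT-CO1 at 8985 could not be ordered, since MT-ATP6 was above MT-CO2 in 18 of 28 libraries and MT-CO2 above MT-CO1 in 15 of 28. MT-ND4L (7792), MT-CO3 (6380), MT-ATP8 (6008), MT-ND4 (4818) and MT-ND2 (4420) followed, with MT-ND4L above MT-CO3 in 25 of 28 libraries, MT-CO3 above MT-ATP8 in 20 and MT-ATP8 above MT-ND4 in 23. MT-RNR2 (3238), MT-CYB (2814) and MT-ND1 (2765) came next, and the last pair was again unordered, with MT-CYB higher in 14 of 28. The lowest were MT-RNR1 (1447), MT-ND6 (839.9) and MT-ND5 (559.2), with MT-RNR1 above MT-ND6 and MT-ND6 above MT-ND5 in 28 of 28 libraries.

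MT-ND3 was also first in the other groups, at a mean of 17262 TPM in SHEP with MYC-ON and of 17641 TPM (MYC-OFF) and 20061 TPM (MYC-ON) in SKNAS. The order below it varied. In SHEP MYC-ON, MT-ND4L (9812) had the second mean but was above MT-ATP6 (9568) in only 11 of 28 libraries. In both SKNAS groups MT-CO2 came second, at 9066 TPM in MYC-OFF and 10087 TPM in MYC-ON. MT-ND5 or MT-ND6 was last in every group, at 609.3 TPM (MT-ND5) in SHEP with MYC-ON, and in SKNAS at 519 TPM (MT-ND6) with MYC-OFF and 303.9 TPM (MT-ND5) with MYC-ON.

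The first comparison asked how activated N-MYC altered these transcripts in SHEP. The mitochondrial transcripts did not move as a block: MT-ND1, MT-CO3 and MT-CYB fell, MT-ND2, MT-ND4 and MT-RNR1 rose by smaller amounts, and the other 9 did not pass the test. The test was limma on log2(TPM + 1) over all 14362 genes with a mean of at least 1 TPM, with CT in the model, and a gene was called when its Benjamini-Hochberg adjusted p did not exceed 0.05 and its log2 change was 0.15 or more in size. Of all genes tested, 33% were called higher and 38.9% lower, so 3 higher and 3 lower of 15 members was no larger a share than in the background. The median log2 change was -0.01 over the 15 members and -0.04 over all genes.

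MT-ND1, a membrane-arm subunit of complex I, was at 1578, 2560 and 5030 TPM (lowest, median and highest) in SHEP MYC-OFF and at 1263, 1660 and 4581 TPM in MYC-ON. The ranges overlapped, while the same-CT pairs were lower in MYC-ON in 25 of 28 cases. The log2 change was -0.42 (SE 0.14, limma adjusted p = 0.0055). MT-CYB, the cytochrome b of complex III, was at 1729, 2799 and 4759 TPM in MYC-OFF and at 1300, 1889 and 4906 TPM in MYC-ON. It too overlapped in range but was lower in 25 of 28 pairs, a log2 change equal to -0.40 (SE 0.11, limma adjusted p = 0.00192). MT-CO3, a core subunit of cytochrome c oxidase, was at 4745, 6311 and 9486 TPM in MYC-OFF and at 2453, 4457 and 11318 TPM in MYC-ON. It was lower in 23 of 28 pairs, a log2 change equal to -0.38 (SE 0.11, limma adjusted p = 0.00226).

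In the other direction, MT-ND2, also a membrane-arm subunit of complex I, was at 2960, 4149 and 7209 TPM in SHEP MYC-OFF and at 3619, 4384 and 9852 TPM in MYC-ON. It was higher in MYC-ON in 24 of 28 pairs, and the change was 0.24 (SE 0.10, limma adjusted p = 0.0372). MT-ND4 was at 2727, 4441 and 8908 TPM in MYC-OFF and at 3057, 5169 and 14643 TPM in MYC-ON, higher in 22 of 28 pairs, and the change was 0.31 (SE 0.14, limma adjusted p = 0.0469). MT-RNR1 was at 1019, 1404 and 2057 TPM in MYC-OFF and at 883.9, 1649 and 2902 TPM in MYC-ON, higher in 20 of 28 pairs, and the change was 0.19 (SE 0.087, limma adjusted p = 0.0432). All 3 genes overlapped between the groups. With each library left out in turn, MT-ND1, MT-CO3 and MT-CYB were called lower in 56 of 56 fits, but MT-ND2 was called in 40, MT-RNR1 in 28 and MT-ND4 in 26. Without the single MYC-ON library of series 2 at CT72 there were 0 members called higher by limma and 0 higher at an unadjusted p under 0.05, with adjusted p of 0.0658, 0.0822 and 0.0737 for MT-ND2, MT-ND4 and MT-RNR1.

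Of the members that did not pass, MT-RNR2 was at 1928, 3133 and 5352 TPM in MYC-OFF and at 1290, 2579 and 8849 TPM in MYC-ON. Its log2 difference was -0.29 (95% interval -0.57 to -0.01, limma adjusted p = 0.0563), and it was lower in MYC-ON in 22 of 28 pairs. Leaving out MYC-ON series 2 at CT72, its highest value, gave -0.35 (adjusted p = 0.0156). MT-ND3 was the most even with series pooled, at 12475, 16489 and 21102 TPM in MYC-OFF and at 13268, 16859 and 22446 TPM in MYC-ON. Its log2 difference was 0.05 (95% interval -0.04 to 0.15). By series it was higher in MYC-ON in 13 of 14 pairs of series 1 but lower in 10 of 14 of series 2. MT-ATP6 and MT-CO2 had log2 differences of -0.01 (95% interval -0.20 to 0.18) and -0.03 (-0.24 to 0.17). MT-CO2 was lower in MYC-ON in 12 of 14 pairs of series 1 and higher in 9 of 14 of series 2.

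For MT-CO1 the difference was -0.17 (95% interval -0.43 to 0.09), for MT-ND6 -0.12 (-0.42 to 0.18) and for MT-ND5 0.07 (-0.28 to 0.42). MT-ND6 was higher in MYC-ON in 10 of 14 pairs of series 1 and lower in 11 of 14 of series 2. MT-ATP8, a small subunit of complex V, was at 2401, 5544 and 12601 TPM in MYC-OFF and at 3490, 5381 and 36739 TPM in MYC-ON, a log2 difference of 0.27 (95% interval -0.09 to 0.63). Its highest value, in MYC-ON series 2 at CT72, made up 23.1% of the mRNA TPM of that library. MT-ND4L differed by 0.26 (95% interval -0.06 to 0.58). Of the 6 mRNAs with an incomplete stop codon 5 were called, 3 lower and 2 higher, and of the other 7 mRNAs 0 were called by limma and 0 had an unadjusted p under 0.05. With series in the model, as given next, 2 of those 7 were called. The 2 higher, MT-ND2 and MT-ND4, were not called without MYC-ON series 2 at CT72. These counts describe 13 genes, beside 33% of all genes called higher and 38.9% lower. Their relation to the tail was not tested.

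Series number was taken to mark the repeat of the experiment in SHEP, though the labels do not say that MYC-OFF and MYC-ON shared a day. The difference between series, taken over 14362 genes, correlated between MYC-OFF and MYC-ON with Pearson's r = 0.489 (a description across genes). With series as a replicate block in the fit, 4 members were higher and 5 lower. MT-ND4L was then called higher (limma adjusted p = 0.0162), and MT-RNR2 (limma adjusted p = 0.00317) and MT-CO1 (limma adjusted p = 0.0321) were called lower. The block left MT-ND1, MT-CYB and MT-CO3 lower (adjusted p = 2.21e-06, 9.76e-06 and 3.77e-05). With the mean of each series as 1 replicate no member was called, 0 higher and 0 lower by limma, with 0 members at an unadjusted p under 0.05, and MT-ND1, MT-CO3 and MT-CYB had adjusted p of 0.337, 0.233 and 0.243. Within series 1 alone their log2 changes were -0.41, -0.47 and -0.43, and within series 2 alone -0.44, -0.29 and -0.36.

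**Figure D2:**
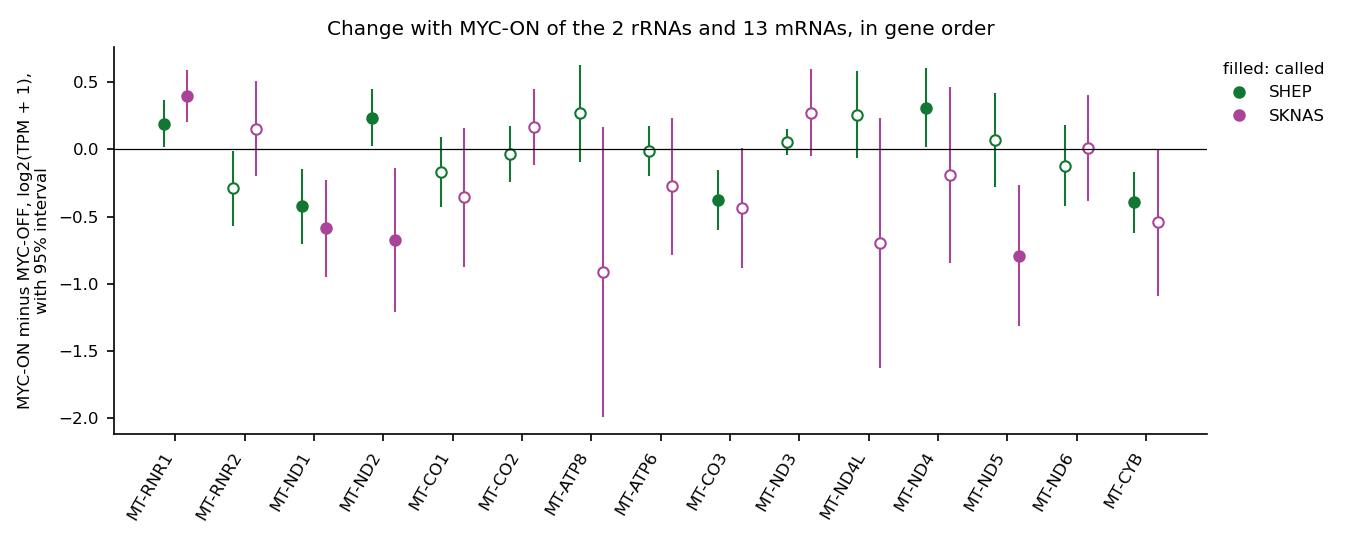
Difference of MYC-ON minus MYC-OFF on the log2(TPM + 1) scale, with 95% intervals from limma, for the 2 rRNAs and 13 mRNAs in gene order in SHEP and SKNAS. Filled points passed the test, and MT-ND1 is below 0 in both lines (-0.42 in SHEP and -0.59 in SKNAS) while MT-ND2 is above 0 in SHEP (0.24) and below 0 in SKNAS (-0.68).

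The share of a library taken by all mRNAs varied from library to library, so each mRNA was also expressed as a percent of the summed TPM of the 13. These percentages sum to 100 in a library, so a rise of some is balanced by a fall of others, and they are given as descriptions. On this scale the SHEP pairs differed more regularly than the TPM did. MT-ND1 made up 3.35% ± 0.390 (SD, n = 28) of mRNA TPM in MYC-OFF and 2.44% ± 0.416 in MYC-ON, and was lower in 28 of 28 pairs. MT-CYB made up 3.462% ± 0.168 and 2.597% ± 0.473, lower in 28 of 28 pairs. MT-CO1 made up 11.02% ± 0.629 and 9.56% ± 0.964, lower in 28 of 28 pairs, although its TPM did not pass the test.

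MT-ND2 was the reverse, with 5.46% ± 0.151 (SD, n = 28) of mRNA TPM in MYC-OFF and 6.26% ± 0.298 in MYC-ON, and it was higher in 28 of 28 pairs. Its groups did not overlap within either series. In series 1 the MYC-OFF libraries lay between 5.166% and 5.78% and the MYC-ON libraries between 5.785% and 6.767%. In series 2 they lay between 5.232% and 5.652% and between 5.699% and 6.758%. MT-ND4 made up 5.85% ± 0.573 and 7.11% ± 1.11, higher in MYC-ON in 27 of 28 pairs. MT-CO3 made up 7.94% ± 0.435 and 6.12% ± 1.53, lower in 23 of 28 pairs, and its spread in MYC-ON was the larger because it changed with CT, as given below for the time course.

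**Figure D3:**
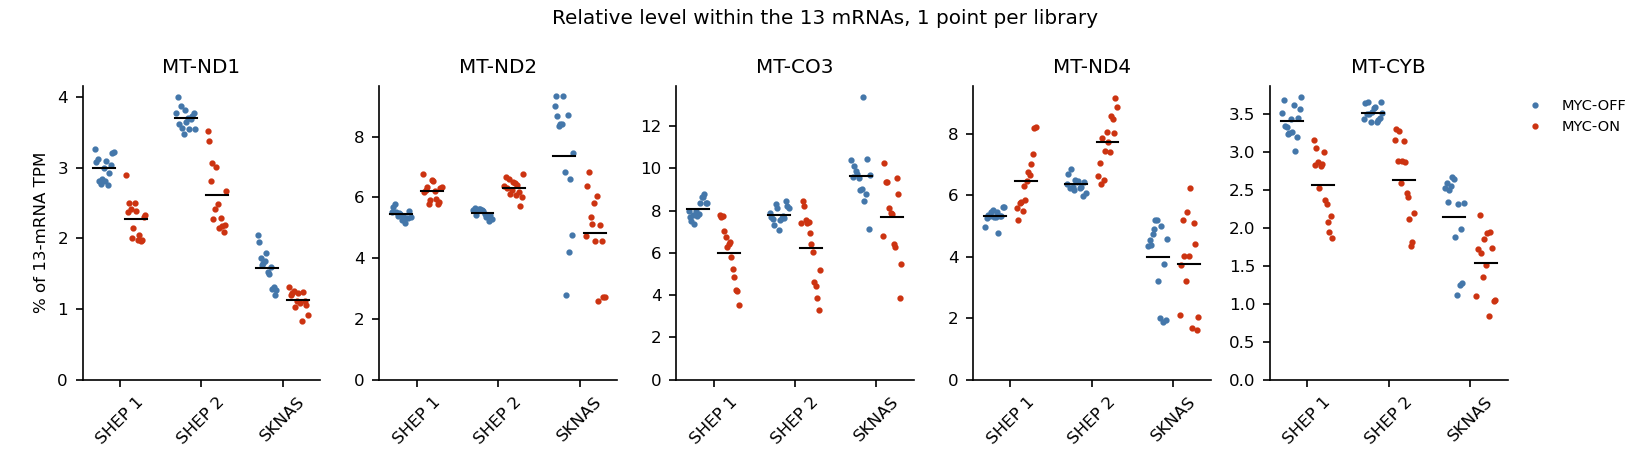
Percent of the summed TPM of the 13 mRNAs taken by MT-ND1, MT-ND2, MT-CO3, MT-ND4 and MT-CYB, 1 point per library, for SHEP series 1, SHEP series 2 and SKNAS in MYC-OFF and MYC-ON. MT-ND2 makes up 5.17% to 5.78% in SHEP MYC-OFF series 1 and 5.79% to 6.77% in MYC-ON series 1, and in SKNAS its MYC-ON libraries lie lower than most MYC-OFF libraries.

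Ratios within adjacent genes were also compared. MT-RNR2 and MT-RNR1 are made from 1 precursor and their TPM ratio was 2.21 ± 0.224 (SD, n = 28) with MYC-OFF and 1.61 ± 0.394 with MYC-ON in SHEP, lower in 27 of 28 pairs. MT-ND4L and MT-ND4, which share 1 mature RNA, had a ratio of 1.61 ± 0.136 and 1.57 ± 0.280 in the same groups, and the pairs were split, with 12 higher and 16 lower. MT-ATP8 and MT-ATP6, also on 1 RNA, had a ratio of 0.625 ± 0.149 with MYC-OFF and 0.811 ± 0.424 with MYC-ON. In MYC-ON series 2 this ratio went from 0.544 to 2.23, and in series 1 from 0.490 to 0.896. A pair of reading frames on 1 RNA has a single level, so the departure of these ratios from 1 and their spread between libraries measure how far values of the short overlapping genes can move apart in these files. MT-ND6, from the opposite strand, relative to its neighbour MT-ND5 was at 1.51 ± 0.178 with MYC-OFF and 1.35 ± 0.310 with MYC-ON.

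Nuclear genes that act on mitochondrial DNA and RNA were compared from 5 fixed lists of 53 genes in all. In SHEP, 42 of the 53 were higher in MYC-ON and 2 lower, with a median log2 change of 0.43, beside 33% and 38.9% of all genes. POLRMT, the mitochondrial RNA polymerase, rose by 0.53 (limma adjusted p = 4.82e-17). TFAM, which packages mitochondrial DNA and starts its transcription, rose by 0.50 (limma adjusted p = 2.13e-09). TWNK, the replicative helicase, rose by 0.43 (limma adjusted p = 2.82e-12), and LRPPRC, which stabilises mitochondrial mRNAs, by 0.87 (limma adjusted p = 5.59e-20).

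By role, 6 of 7 transcription genes were higher and 0 lower, with MTERF3 at a log2 change of 0.75. Of 10 replication genes 7 were higher and 1 lower. POLG2, the accessory subunit of the DNA polymerase, changed by 1.25 and SSBP1, the single-strand binding protein, by 0.87, while PRIMPOL changed by -0.29. Of 15 RNA processing genes 12 were higher and 1 lower, with FASTKD3 at 0.91, TBRG4 at 0.77 and FASTK at -0.65. Of 6 stability and decay genes 4 were higher, led by SLIRP, the partner of LRPPRC, at 1.25 and the helicase SUPV3L1 at 0.96. Of 15 modification genes 13 were higher, led by the rRNA methyltransferase MRM3 at 1.16 and the tRNA-modifying enzyme TRIT1 at 1.04.

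The nuclear-encoded subunits of complexes I, III, IV and V numbered 74 in the fixed lists. In SHEP MYC-ON 36 were higher and 12 lower, beside 33% and 38.9% of all genes. Their median log2 change was 0.13, beside -0.04 for all genes. The counts by complex are to be read beside the same shares. For complex I, 20 of 37 were higher and 8 lower, with NDUFB9 (1.06) and NDUFAB1 (0.82) at the top and NDUFA13 (-0.59) and NDUFA2 (-0.57) at the bottom. For complex III, 6 of 9 were higher, with UQCRFS1 at 0.51 and UQCRQ at 0.46, and UQCRB was lower at -0.18. For complex IV, 2 of 11 were higher (COX5A 0.49, COX7B 0.35) and 2 lower (COX8A -0.28, COX6B1 -0.24). For complex V, 8 of 17 were higher, with ATP5F1B at 0.47 and ATP5F1D at 0.37, and ATP5PD was lower at -0.25. Beside these, the mitochondrially encoded subunits of complex I were split in SHEP, with MT-ND2 and MT-ND4 higher and MT-ND1 lower. The 1 mitochondrial subunit of complex III, MT-CYB, and 1 of the 3 of complex IV, MT-CO3, were lower.

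Of 20 nuclear pseudogenes of mitochondrial genes, 5 were tested in SHEP. MTND2P28 was higher in MYC-ON (log2 change 0.38, limma adjusted p = 0.01), as was its parent MT-ND2. MTCO1P12 was lower (-0.60, limma adjusted p = 6.28e-06), and MTATP6P1 did not pass (0.23, limma adjusted p = 0.135). Over the 56 SHEP libraries, with the mean of each group and series removed, the genes outside the set whose log2(TPM + 1) was most like the log2 summed TPM of the 13 mRNAs were MTATP6P1 (Pearson's r = 0.883), MTND2P28 (0.821), AHSA2P (0.732), RBM6 (0.726) and GOLGA8B (0.721). They were the first 5 of 8856 genes ranked, and the points share library and series. MTATP6P1 and MTND2P28 can share reads with MT-ATP6 and MT-ND2. Their likeness and their changes are therefore not independent of the set.

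In SKNAS the same comparison gave 1 member higher and 3 lower of 15. MT-ND1, MT-ND2 and MT-ND5 of complex I fell with MYC-ON, and MT-RNR1 rose. MT-ND3, MT-ND4, MT-ND4L and MT-ND6, also of complex I, did not pass. Of 13886 genes tested, 13.7% were called higher and 34.4% lower, so the members called were no larger a share than in the background. The median log2 change of all genes was -0.29 in this comparison, which moves with the low library medians of MYC-ON, and that of the 15 members was -0.36. A log2 change of a member is therefore best read against -0.29.

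MT-ND1 was at 249, 1098 and 1468 TPM (lowest, median and highest) in SKNAS MYC-OFF and at 256.9, 651.1 and 934.5 TPM in MYC-ON. The log2 change was -0.59 (SE 0.17, limma adjusted p = 0.0108), and 10 of 13 pairs were lower in MYC-ON. MT-ND5, the largest mRNA gene of the set, was at 147.9, 628.5 and 823.7 TPM in MYC-OFF and at 83.98, 272.3 and 680.3 TPM in MYC-ON. It changed by -0.79 (SE 0.25, limma adjusted p = 0.0162) and was lower in 11 of 13 pairs. MT-ND2 was at 467.5, 5513 and 7510 TPM in MYC-OFF and at 809.4, 3055 and 4669 TPM in MYC-ON. It changed by -0.68 (SE 0.25, limma adjusted p = 0.0378) and was lower in 10 of 13 pairs. All 3 overlapped between groups, and the lowest MYC-OFF values came from libraries with a low median.

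MT-RNR1 was at 715.6, 1154 and 1898 TPM in SKNAS MYC-OFF and at 1050, 1596 and 1974 TPM in MYC-ON. It changed by 0.40 (SE 0.091, limma adjusted p = 0.00221) and was higher in 13 of 13 pairs, although the group ranges overlapped. MT-RNR2, at 1272, 1458 and 2201 TPM in MYC-OFF and 722.7, 1587 and 3496 TPM in MYC-ON, did not pass (log2 difference 0.16, 95% interval -0.20 to 0.51).

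Of the remaining mRNAs in SKNAS, MT-ATP8 had the widest range, at 115.2, 3797 and 10037 TPM in MYC-OFF and at 53.73, 1848 and 8349 TPM in MYC-ON. Its log2 difference of -0.91 (95% interval -1.99 to 0.17) did not pass. Leaving out the MYC-OFF or the MYC-ON library at CT64 gave -1.32 (limma adjusted p = 0.0101 and 0.0103), as either takes that pair out of the contrast. Leaving out the MYC-OFF library at CT64 also brought MT-CO3 (-0.56), MT-ND4L (-0.96) and MT-CYB (-0.71) below the threshold. Leaving out either library at CT52 did so for MT-ND4L (-0.97) and MT-CYB (-0.66). MT-ND4L was at 449.6, 4360 and 7748 TPM in MYC-OFF and at 490, 1444 and 6777 TPM in MYC-ON (difference -0.70, 95% interval -1.63 to 0.23). MT-CYB differed by -0.54 (-1.09 to 0.00), MT-CO3 by -0.44 (-0.88 to 0.01) and MT-CO1 by -0.36 (-0.87 to 0.16). MT-ND3 was at 5593, 17657 and 24485 TPM in MYC-OFF and at 14503, 19213 and 26389 TPM in MYC-ON (difference 0.27, 95% interval -0.05 to 0.60). MT-CO2 (0.17), MT-ATP6 (-0.27), MT-ND4 (-0.19) and MT-ND6 (0.01) did not pass either. As a percent of mRNA TPM, MT-ND1 was lower in MYC-ON in 13 of 13 pairs, MT-ND2 and MT-ND5 in 12 of 13, and MT-CO2 was higher in 11 of 13 and MT-ND3 in 10 of 13.

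The library median moved with these results, and 3 alternatives took it into account. With it as a covariate, 4 members were higher (MT-CO2 at 0.39, MT-ND4 at 0.57, MT-RNR1 at 0.43 and MT-RNR2 at 0.45) and 0 lower by limma, with 1 lower at an unadjusted p under 0.05. MT-ND1 was then at -0.22 (limma adjusted p = 0.0668). Without the libraries under 3.8, 10 MYC-OFF and 3 MYC-ON libraries remain. With CT as a factor the contrast then rests on CT32 and CT44 alone, the CTs that keep both conditions. In that fit 0 members were called either way by limma, and 0 higher and 1 lower had an unadjusted p under 0.05. So narrow a contrast does not show that the members were unchanged. When CT entered that fit as a number, which leaves more degrees of freedom and was chosen after seeing the data, 1 was higher and 3 lower. These were MT-ND1 (-0.54, limma adjusted p = 0.00884), MT-ND2 (-0.44, limma adjusted p = 0.0439), MT-CO3 (-0.30, limma adjusted p = 0.0389) and MT-RNR1 (0.47, limma adjusted p = 0.0292), while MT-ND5 was at -0.27 (limma adjusted p = 0.332). With each library left out in turn, MT-ND1, MT-ND5 and MT-RNR1 were called in 27 of 27 fits and MT-ND2 in 9 of 27. SKNAS had 1 library per condition at a CT, so leaving out either library of a pair gave the same estimate. The 27 fits are therefore not 27 separate checks.

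Within the low-median libraries the set was differently composed. MT-ND3 made up 43.1% ± 12.6 (SD, n = 4) of mRNA TPM in MYC-OFF and 45.5% ± 11.2 (SD, n = 10) in MYC-ON, against 26.4% ± 5.19 (SD, n = 10) and 22.8% ± 3.79 (SD, n = 3) in the other libraries. The ratio of MT-ATP8 to MT-ATP6 was 0.280 ± 0.242 and 0.283 ± 0.155 in the low-median libraries and 0.758 ± 0.233 and 0.970 ± 0.176 in the others. MT-ND4L relative to MT-ND4 was 1.11 ± 0.559 and 0.888 ± 0.219 against 1.60 ± 0.335 and 1.47 ± 0.586. These differences between libraries of 1 condition were as large as or larger than those between conditions.

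**Figure D4:**
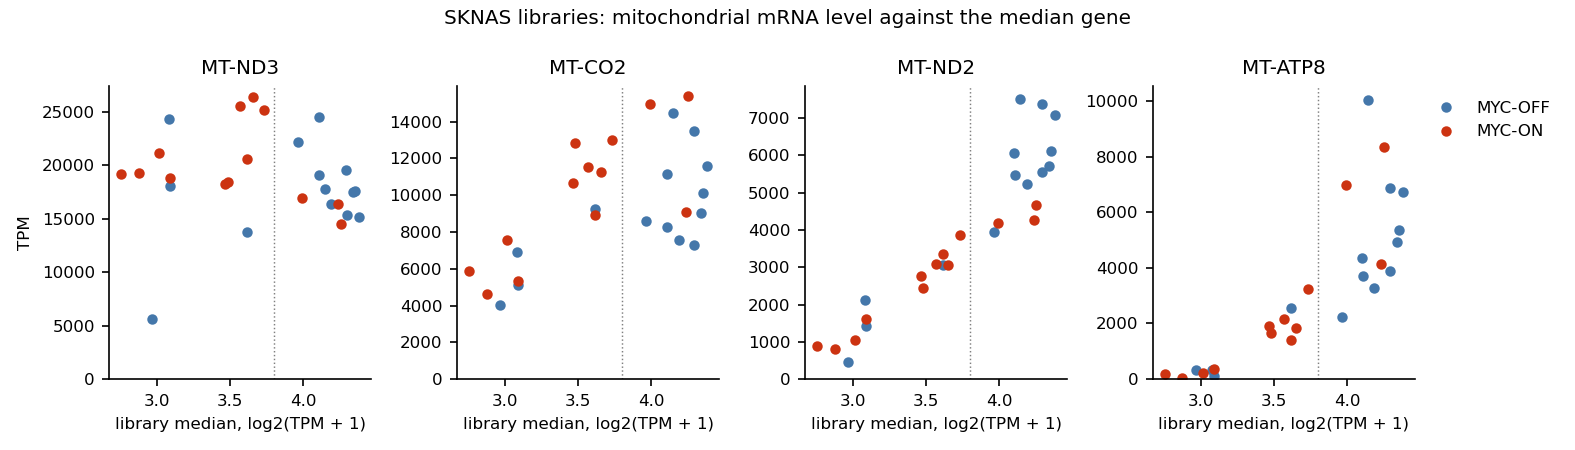
Level in TPM of MT-ND3, MT-CO2, MT-ND2 and MT-ATP8 in each SKNAS library against that library's median log2(TPM + 1) over tested nuclear genes, MYC-OFF and MYC-ON in different colours, with the 3.8 limit dotted. Of the libraries left of the limit, 10 are MYC-ON and 4 MYC-OFF, and MT-ATP8 falls to 53.73 TPM there while MT-ND3 in MYC-ON stays between 18256 and 26389 TPM.

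For the nuclear genes in SKNAS, 21 of the 53 genes of mitochondrial DNA expression were higher in MYC-ON and 3 lower. Among all genes 13.7% were called higher and 34.4% lower. The median log2 change of the 53 was 0.20, beside -0.29 for all genes. POLRMT rose by 0.93 (limma adjusted p = 0.00521) and LRPPRC by 0.59 (limma adjusted p = 0.0287), while TFAM (0.34) and TWNK (0.13) were not called. Of the 74 nuclear subunits 17 were higher and 3 lower, beside the same shares of all genes, with a median of 0.17. Complex I held 14 of the 17 higher. For complexes III, IV and V, 0 of 9, 1 of 11 and 2 of 17 were higher. MTND2P28 was lower (-1.04, limma adjusted p = 0.0291), the direction in this line of MT-ND2, with which it can share reads.

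An interaction of line and condition, fitted to 83 libraries and 14870 genes, asked whether the effect of MYC-ON differed between SKNAS and SHEP. Of all genes, 13.4% were called higher and 38.1% lower in SKNAS relative to SHEP, and 0 members were higher by limma (0 with an unadjusted p under 0.05 in that direction) and 4 lower. The difference was -0.91 for MT-ND2 (SE 0.22, limma adjusted p = 0.000611), which rose in SHEP and fell in SKNAS. It was -1.18 for MT-ATP8 (SE 0.42, limma adjusted p = 0.0174), -0.96 for MT-ND4L (SE 0.37, limma adjusted p = 0.0270) and -0.86 for MT-ND5 (SE 0.31, limma adjusted p = 0.0175). With the library median as a covariate none of the 4 was called lower, and MT-ND2 was at -0.43 (adjusted p = 0.0678). For MT-ND1, lower in both lines, the difference was -0.17 (95% interval -0.64 to 0.31). For MT-RNR1, higher in both lines, it was 0.21 (95% interval -0.07 to 0.49).

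Between the lines, SKNAS had the lower level of most members. Line and series cannot be told apart here, because each line was grown and collected as its own series. In MYC-OFF, 10 members were lower in SKNAS and 0 higher by limma (0 higher at an unadjusted p under 0.05), beside 47% of 14870 genes lower and 31.9% higher. The 5 that were not called were MT-ND2, MT-CO2, MT-CO3, MT-ND3 and MT-ND5. MT-ND1 differed by -1.57 (limma adjusted p = 1.67e-12), MT-ND4L by -1.32, MT-ATP8 by -1.25, MT-CYB by -1.23, MT-CO1 by -1.21, MT-ND4 by -1.11, MT-RNR2 by -0.99, MT-ATP6 by -0.97, MT-ND6 by -0.69 and MT-RNR1 by -0.29. MT-ND3 differed by 0.03 (95% interval -0.15 to 0.21) and MT-CO2 by -0.09 (-0.36 to 0.18).

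Without the low-median libraries 8 of the 10 were still called lower. MT-ND1 was then at -1.19 (limma adjusted p = 3.19e-08), while MT-ATP8 (-0.22, limma adjusted p = 0.405) and MT-RNR1 (-0.24, limma adjusted p = 0.0534) were lost and MT-ND2 was called higher (0.47, limma adjusted p = 0.00193). In MYC-ON, 11 members were lower and 1, MT-ND3 (0.21, limma adjusted p = 0.0344), was higher, beside 57.8% and 26.9% of all genes. MT-ATP8 (-2.51), MT-ND4L (-2.35) and MT-ND1 (-1.76) differed most. Without the low-median libraries only 3 MYC-ON libraries of SKNAS remained, and 2 members were lower, MT-ND1 (-1.23, limma adjusted p = 0.00046) and MT-CYB (-0.59, limma adjusted p = 0.0429), and 1 higher, MT-CO2 (0.58, limma adjusted p = 0.0277). MT-ND1 had the lowest adjusted p of the members in both conditions, with and without these libraries.

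The time course was then examined for a drift and for a 24 h rhythm. In SHEP MYC-OFF no member had a slope that passed with both series in 1 fit. There were 0 higher and 0 lower by limma, with 1 member (MT-ATP8, -0.25 per 24 h) at an unadjusted p under 0.05, beside 5.78% of genes rising and 10.1% falling. The MYC-OFF series drifted in opposite directions. In series 1 alone 4 members were called rising, and 6 rising and 0 falling had an unadjusted p under 0.05, beside 3653 genes. In series 2 alone 0 were called either way by limma, and 0 rising and 7 falling had an unadjusted p under 0.05, beside 2051 genes. In SHEP MYC-ON, with both series in 1 fit, 3 members rose and 2 fell, beside 20.5% and 37% of genes. MT-RNR2 rose by 0.64 on the log2 scale per 24 h (SE 0.091, limma adjusted p = 1.02e-06), MT-RNR1 by 0.44 (SE 0.052, limma adjusted p = 4.18e-08) and MT-ND4 by 0.30 (SE 0.10, limma adjusted p = 0.0129). MT-CO3 changed by -0.47 per 24 h (SE 0.079, limma adjusted p = 1.01e-05) and MT-CYB by -0.30 (SE 0.098, limma adjusted p = 0.0112).

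The courses ran in the same direction in both series for the extremes. MT-RNR2 in MYC-ON went from 1290 TPM at CT24 to 4449 TPM at CT76 in series 1 and from 2864 to 4996 TPM in series 2, with 8849 TPM at CT72. MT-CO3 went from 4634 to 2453 TPM in series 1 and from 8135 to 3696 TPM in series 2. For comparison, the MYC-OFF means over all CTs were 5409 TPM (series 1) and 7351 TPM (series 2) for MT-CO3 and 2516 and 3959 TPM for MT-RNR2. MT-RNR2 in MYC-ON thus began below and ended above its MYC-OFF mean in both series, while MT-CO3 ended below it.

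A direct comparison of slopes, chosen after seeing the data, gave 4 members with a higher and 1 with a lower slope in MYC-ON than in MYC-OFF, beside 16.1% and 27.3% of genes. The difference was 0.54 per 24 h for MT-RNR2 (limma adjusted p = 4.24e-05), 0.38 for MT-RNR1 (limma adjusted p = 4.38e-06), 0.56 for MT-ATP8 (limma adjusted p = 0.0179) and 0.34 for MT-ND4 (limma adjusted p = 0.0212). It was -0.49 for MT-CO3 (limma adjusted p = 2.95e-05). MT-CYB did not pass (-0.26, limma adjusted p = 0.0753). Without MYC-ON series 2 at CT72, MT-ND4 was lost (limma adjusted p = 0.0518) and MT-CYB gained (limma adjusted p = 0.0428).

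**Figure D5:**
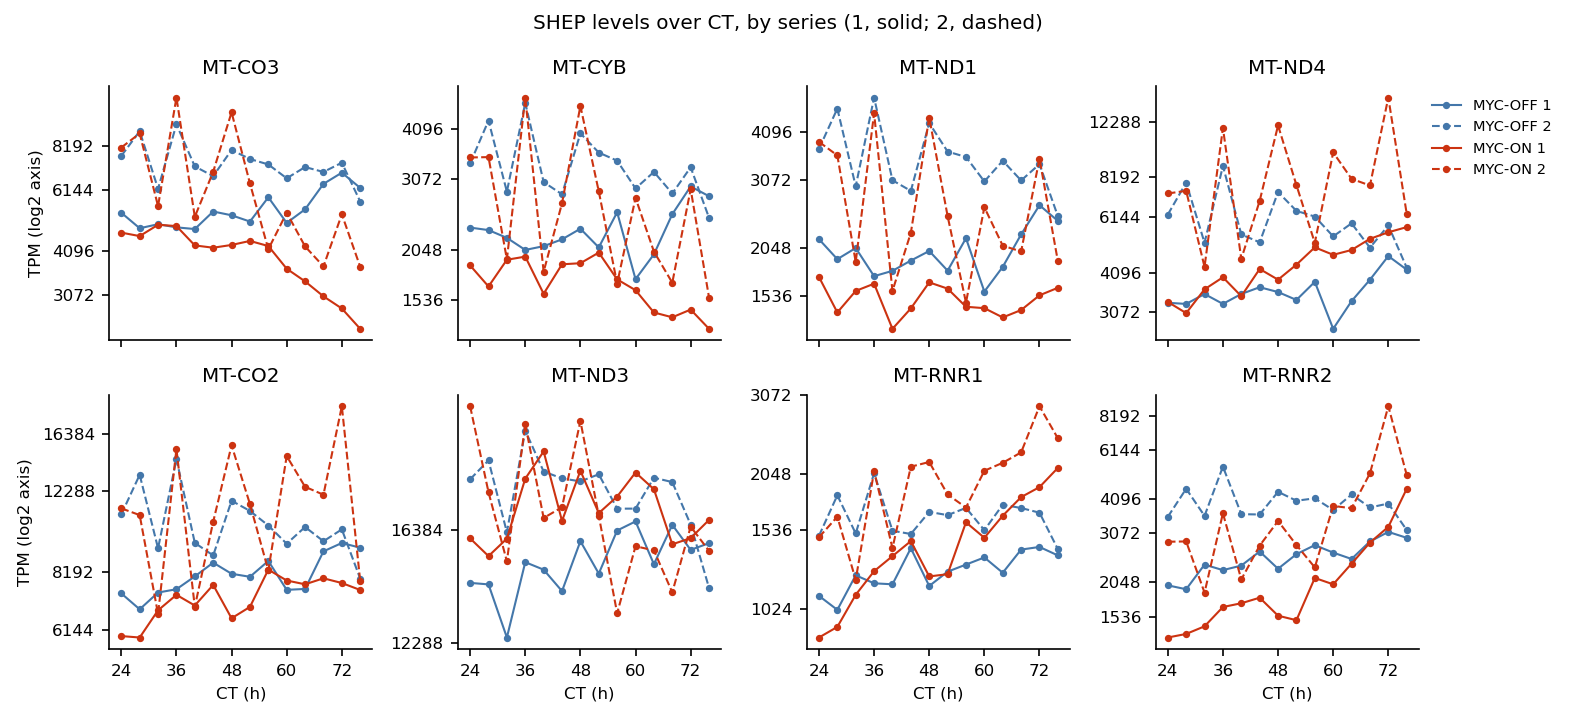
TPM (log2 axis) of 6 mitochondrial mRNAs and both rRNAs against CT (hours) in SHEP, series 1 solid and series 2 dashed, MYC-OFF and MYC-ON in different colours. In MYC-ON, MT-RNR2 goes from 1290 to 4449 TPM in series 1 and MT-CO3 from 4634 to 2453 TPM. In MYC-OFF no slope passed the test with both series in 1 fit, while in series 1 alone 4 members were called rising.

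In SKNAS no slope of a member passed in either condition. In MYC-OFF it was 0 of 15 members and 0% of genes by limma, with 0 members and 5144 genes at an unadjusted p under 0.05. In MYC-ON it was 0 of 15 members beside 0.0299% of genes rising and 0.0823% falling, with 1 member (MT-RNR2, 0.67 per 24 h) and 813 genes at an unadjusted p under 0.05.

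No member had a 24 h rhythm by limma's F test of cosine and sine terms at a fixed period. The share of all genes called was 0.0911% for MYC-OFF and 0.021% for MYC-ON in SHEP, and 0% for both conditions in SKNAS. At an unadjusted p under 0.05 there were 0 members in each group, beside 1487, 1528, 63 and 46 of all genes. The lowest adjusted p of a member was 0.479 with MYC-OFF and 0.656 with MYC-ON in SHEP. Collection was every 4 h over about 2 cycles, and mRNA share varied between libraries as given above, so a rhythm of small amplitude may have been missed. The smallest amplitude that could be detected was not estimated.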

How the data were processed

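Polyadenylated RNA had been sequenced in paired-end mode. The authors quantified reads with Salmon 1.3.0 against a decoy-aware GRCh38 transcriptome, collapsed transcripts to genes with Tximport and deposited TPM, 1 value per gene and library. Every TPM column sums to 1000000, so the depth of single libraries is unknown and the count model used in the study could not be applied. All 83 columns matched a sample label. Groups, series and CT were read from the labels.

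Levels were tested with limma 3.58.1 (R 4.3.3, eBayes without a mean trend) on log2(TPM + 1), over genes with a mean of at least 1 TPM, with Benjamini-Hochberg adjustment over all of them and thresholds of 0.05 and 0.15 (log2). CT was a factor. Slopes and 24 h terms were fitted per group with series in the model and called on the adjusted p alone. A fold change on this scale understates that of genes at low TPM. The script was tested on simulated data. Shares, ratios and percentages of mRNA TPM were computed in Python 3.11.15 and are descriptions. SHEP groups were paired by the replicate number in the labels, taken as the repeat of the experiment. The correlation of series differences between conditions (Pearson's r = 0.489 over 14362 genes) does not establish that pairing.

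All 15 detected members were named. From each companion list the 2 genes with the largest called changes in each direction in SHEP were named, and POLRMT, TFAM, TWNK, LRPPRC, MTATP6P1 and MTRNR2L12 always. The likest genes were the 5 with the highest correlation among those at 10 TPM or more. Members and lists were chosen with earlier results of these data known. Coordinates and sequences are those of the GRCh38 reference and its GENCODE annotation. Alternatives tried were a pseudocount of 0.1, no filter, rescaling to nuclear genes, median-of-ratios rescaling, a mean trend, added pseudogene TPM, the library median as covariate, and leaving out series, single libraries or low-median libraries. The study's other cell line and further SKNAS series were not used here.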

Additional observations from a re-analysis of the deposited data

Results flagged for a closer look

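The effect of MYC-ON on 4 members differed between SKNAS and SHEP by the interaction test. For MT-ND2 the SKNAS effect minus the SHEP effect was -0.913 in log2 units (limma adjusted p = 0.000611), and for MT-ATP8 it was -1.18 (limma adjusted p = 0.0174). For MT-ND4L it was -0.957 (limma adjusted p = 0.0270), and for MT-ND5 -0.862 (limma adjusted p = 0.0175). With the library median as a covariate the differences were -0.43, -0.21, 0.00 and -0.30 (limma adjusted p = 0.0678, 0.661, 0.997 and 0.422). Without the SKNAS libraries whose median is under 3.8 they were -0.83, -0.18, -0.39 and -0.50 (limma adjusted p = 0.183, 0.916, 0.772 and 0.714). That fit takes the SKNAS effect from CT32 and CT44 alone, the CTs that keep both conditions. With SHEP series 1 or series 2 left out, MT-ND2 was at -0.97 and -0.86 and MT-ND5 at -0.89 and -0.83. MT-ATP8 was at -1.45 and -0.91 and MT-ND4L at -1.07 and -0.84, of which the last 3 did not pass (limma adjusted p = 0.195, 0.0677 and 0.157). Library median and condition move together in SKNAS, and their parts cannot be told apart.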

How the results depend on the processing

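In SHEP, MT-ND1, MT-CO3 and MT-CYB were lower and called in MYC-ON under every alternative run except series means as replicates. The count of members higher, 3, became 0 without the filter, with nuclear rescaling, with series means and without MYC-ON series 2 at CT72. The count lower, 3, became 5 with the replicate block (4 higher) and 0 with series means. Leaving out series 1 or series 2 gave 4 to 6 members lower and 3 to 5 higher. Leaving out 1 library at a time gave 0 to 3 higher and 3 to 4 lower in SHEP, and 1 higher and 2 to 7 lower in SKNAS.

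In SKNAS the 1 higher and 3 lower became 4 higher with median-of-ratios rescaling, and 4 and 0 with the library median as covariate. They became 0 and 0 without low-median libraries, where only CT32 and CT44 keep both conditions. MT-ND4 turned to 0.57 with the covariate. For the difference between lines, 0 higher and 4 lower became 4 and 2 with median-of-ratios rescaling, 1 and 0 with the covariate, 0 lower without low-median libraries, and 1 and 2 without series 2. MT-ND4L turned to 0.0017 with the covariate. Between lines in MYC-OFF, 1 member was higher with the covariate or without low-median libraries, since MT-ND2 turned to 0.40 and 0.47. In MYC-ON, 0 were higher without the filter or with nuclear rescaling, 3 with median-of-ratios rescaling (MT-RNR1 turned to 0.39), and 3 higher and 3 lower with the covariate, where MT-ND2 (0.097), MT-CO3 (0.41) and MT-ND5 (0.083) turned. Without low-median libraries 2 were lower, and MT-ND3 (-0.067) and MT-ND5 (0.026) turned.

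For slopes, SHEP MYC-OFF had 0 to 4 members rising when 1 series was left out, and SHEP MYC-ON 2 to 7 rising and 1 to 2 falling. SKNAS MYC-ON had 1 rising with the covariate. The slope difference had 2 lower with the covariate and 2 without MYC-ON series 2 at CT72, and 2 to 3 higher and 0 to 2 lower with 1 series left out. The causes were not tested. Over all alternatives, 135 counts and shares stayed within 1.5 times or 1 SD of the reported value and 39 moved outside it. The 135 include counts of 0 that stayed 0 and the SKNAS share ratio, which changed sign within 1 SD. Of single-gene estimates, 543 kept their sign and call, 67 lost a call and 29 gained one. A further 56 changed sign without a call, and 10 changed sign with a call in either fit. The mean mRNA share changed by 0.073 (log2) with MYC-ON in SHEP and by -0.16 in SKNAS, and by 0.15 and 0.30 when taken relative to the median nuclear gene, so that the direction turned in SKNAS. The depth of single libraries is unknown, so small differences of low genes cannot be bounded.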
